A study of Mus musculus with 8 samples.

Results

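The genes described here carry the signal from tumor necrosis factor (TNF) receptor 1 to survival, apoptosis or necroptosis. They were chosen by name and comprise Tnfrsf1a, Tradd, Fadd, Ripk1, Ripk3, Mlkl, Casp8, Cflar, Birc3 and Cyld, 10 of the 51789 genes in the count table. All 10 passed the filter on low counts. RNA was sequenced from 8 whole mammary glands of C57BL/6 female mice, collected 6 weeks after a single injection of small extracellular vesicles (sEVs) into the abdominal gland. The vesicles of the sEVNORM group (3 glands) came from normoxic cultures of AT3, a mouse line of metastatic mammary adenocarcinoma, and those of the sEVHYP group (2 glands) came from the same cells in hypoxia. The sEVCTRL group (3 glands) received vesicles from medium that no cells had conditioned, and no uninjected gland was analysed here. The study used the whole gland to ask how tumor vesicles alter the transcriptome of a normal mammary gland, and this set asks where the death receptor genes stood.

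As background, ligand-bound TNF receptor 1, the product of Tnfrsf1a, recruits the adaptor TRADD and the kinase RIPK1. The ubiquitin ligase cIAP2, the product of Birc3, adds ubiquitin chains in this first complex, which favors NF-kB signaling and survival, and the deubiquitinase CYLD removes such chains. A second complex forms on FADD, where caspase-8 starts apoptosis and also cleaves RIPK1 and RIPK3, while FLIP, the product of Cflar, restrains caspase-8. Where caspase-8 is blocked, RIPK1 and RIPK3 assemble and RIPK3 phosphorylates MLKL, which breaks the plasma membrane in the inflammatory form of death called necroptosis. In the mammary gland, death receptor signaling takes part in the remodeling of the epithelium after lactation. These proteins are regulated largely by assembly, cleavage, ubiquitin and phosphate, none of which RNA sequencing measures.

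Promoter windows of Ripk1, Casp8 and Cyld are shown because these genes rose and fell with Birc3 from gland to gland, as described further down. Each is the 250 bases before the start in RefSeq (GRCm38.p6), on the strand of the gene, at chr13:34002113-34002362 (+), chr1:58802252-58802501 (+) and chr8:88696778-88697027 (+). For Ripk1 the first of 2 windows is given. None of the 3 windows overlaps an annotated exon. Capitals mark motifs that were searched on both strands: the NF-kB site, the GC box (GGGCGG or CCGCCC), the CCAAT box (CCAAT or ATTGG), the TATA box (TATAAA, gene strand alone) and the core of the interferon-stimulated response element (GAAANNGAAA or TTTCNNTTTC).
Ripk1: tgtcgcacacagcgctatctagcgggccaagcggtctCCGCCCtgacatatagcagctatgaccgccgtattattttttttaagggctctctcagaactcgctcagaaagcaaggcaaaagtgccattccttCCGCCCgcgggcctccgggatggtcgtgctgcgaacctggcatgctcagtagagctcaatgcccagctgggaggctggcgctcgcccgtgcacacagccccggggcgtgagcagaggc
Casp8: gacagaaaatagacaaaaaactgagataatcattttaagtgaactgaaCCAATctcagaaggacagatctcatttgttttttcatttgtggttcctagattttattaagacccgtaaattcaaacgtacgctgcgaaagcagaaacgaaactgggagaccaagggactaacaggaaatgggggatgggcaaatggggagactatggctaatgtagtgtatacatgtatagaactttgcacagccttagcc
Cyld: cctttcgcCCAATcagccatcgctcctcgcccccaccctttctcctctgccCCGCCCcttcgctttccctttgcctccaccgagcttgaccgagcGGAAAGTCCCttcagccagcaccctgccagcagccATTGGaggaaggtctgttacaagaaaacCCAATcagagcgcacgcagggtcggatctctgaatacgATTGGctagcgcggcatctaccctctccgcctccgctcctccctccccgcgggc
RefSeq windows were matched for 9 of the 10 genes, all but Tradd. Of these 9, only Cyld held the NF-kB motif, ggaaagtccc at 155 to 146 bases before the start, a motif found in 7.25% of the 32851 windows of all genes. The GC box was in 4 of the 9 (32.7% of all windows), among them Ripk1, and the CCAAT box in Casp8 and Cyld (33.8%). None of the marked motifs in the 3 printed windows overlapped another. The TATA box was in 1 window, that of Cflar (7.59%), and the interferon core in 0 of 9 (2.98% of all windows). GC content was 60.8% for Ripk1 (69.6% in its window 2), 62.8% for Cyld and 39.6% for Casp8, beside a median of 52.4% over all windows. The Casp8 window precedes a start inside the annotated span of the gene (chr1:58795374-58847503). The window of Birc3, which is not printed, had a GC content of 43.6%. Whether the composition of these windows has a part in the profiles of the genes was not tested. A match of letters does not show that a factor binds. Nor does the lack of a match show the lack of a site, since 1 pattern per motif was searched within 250 bases.

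Libraries held 18194996 to 24622569 counts. Values below are CPM, a count relative to the TMM-scaled size of its library, and folds are log2 differences from edgeR with their standard errors (SE). The glands held epithelium, with luminal markers (Krt8, Krt18, Epcam and 7 others) at a summed 924 to 2004 CPM, within tissue that varied between glands of the same group. Of the lowest and highest luminal sums, in sEVCTRL replicate 1 and sEVHYP replicate 2, Prlr alone gave 486 and 1229 CPM. Krt8 gave 48.2 and 109 CPM there, and Epcam 63.6 and 96.6 CPM. B cell markers (Cd79a, Ms4a1 and 5 others) summed to 2098, 925 and 1129 CPM in the sEVCTRL glands, 1450, 2310 and 944 in the sEVNORM glands, and 1434 and 657 in the sEVHYP glands. Skeletal muscle markers ran from 7.40 CPM in sEVNORM replicate 2 to 10953 CPM in sEVHYP replicate 2, and white adipocyte markers from 5105 to 9876 CPM in sEVNORM replicate 2 and sEVCTRL replicate 3. Keratinocyte markers summed to 62.1 CPM in sEVNORM replicate 3 and at 8.15 to 12.8 CPM elsewhere. In whole tissue, fewer cells of a type and less RNA per cell cannot be told apart.

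None of the 10 genes passed the test in any comparison. In edgeR, 0 of 10 passed an unadjusted P of 0.05 when sEVHYP was compared with sEVNORM, where 3.95% of all 17858 genes tested passed. Against sEVCTRL, 0 of 10 passed for sEVHYP (2.45% of all genes) and 0 of 10 for sEVNORM (1.62%). The lowest P values among the 10 were 0.126 (Casp8), 0.148 (Mlkl) and 0.177 (Casp8), and none of the 10 had an adjusted P below 0.999. DESeq2 fitted to the groups compared also called 0 of 10 at an unadjusted P of 0.05 in each comparison. Over all genes, edgeR called 0 at an adjusted P of 0.05 in each comparison, with 706, 438 and 290 genes at an unadjusted P under 0.05 in the order given above, while DESeq2 called 83, 14 and 3 at the adjusted threshold, none of them among the 10. The 3 comparisons share libraries, so their results are given side by side and are not independent.

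**Figure D1:**
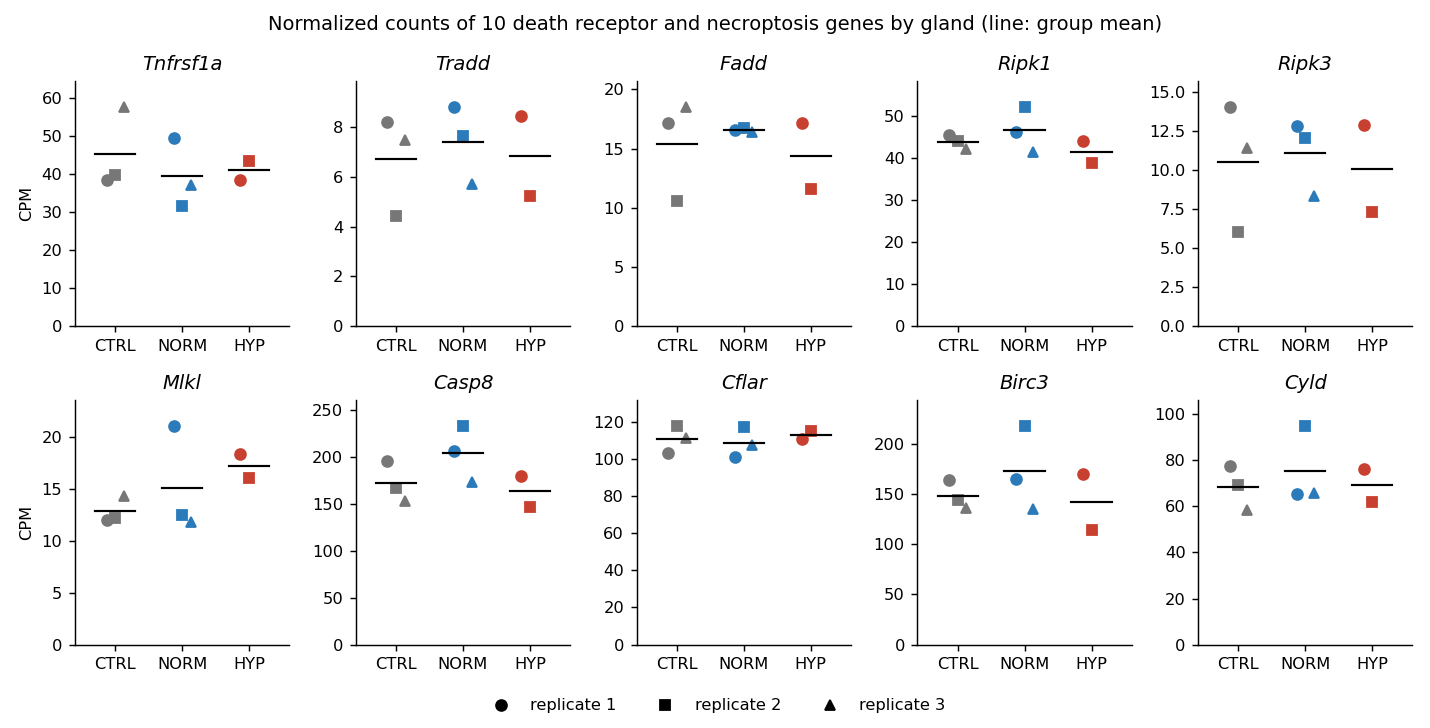
Normalized counts (CPM, vertical axis from 0, scaled for each gene) of the 10 genes in the 8 glands, grouped as sEVCTRL (CTRL), sEVNORM (NORM) and sEVHYP (HYP). Points are glands, marker shape is the replicate number and lines are group means; the groups overlap in every panel except the sEVHYP and sEVCTRL glands of Mlkl, and Cflar varies least.

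Among the receptor and its adaptors, the differences were small beside the spread. Tnfrsf1a (ENSMUSG00000030341, chr6:125349362-125362484, + strand), the receptor itself, was at 38.4, 39.9 and 57.7 CPM in the sEVCTRL glands, 49.6, 31.6 and 37.2 in the sEVNORM glands, and 38.5 and 43.6 in the sEVHYP glands. The highest value came from a sEVCTRL gland and the lowest from a sEVNORM gland, and the sEVHYP pair lay between them. The log2 fold change of sEVHYP was 0.06 (SE 0.24) against sEVNORM and -0.14 (SE 0.24) against sEVCTRL, and that of sEVNORM against sEVCTRL was -0.20 (SE 0.22).

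Tradd (ENSMUSG00000031887, chr8:105258286-105264609, - strand), the adaptor that binds the receptor's death domain, was the gene with the fewest counts, 97 to 219 per library. Its levels were 8.23, 4.42 and 7.50 CPM with sEVCTRL, 8.81, 7.67 and 5.72 with sEVNORM, and 8.47 and 5.25 with sEVHYP. Each group held 1 gland under 6 CPM and at least 1 over 7 CPM, so the spread within a group exceeded the distance between group means (6.72, 7.40 and 6.86 CPM). Fold changes were -0.11 (SE 0.35) for sEVHYP against sEVNORM, 0.03 (SE 0.35) against sEVCTRL, and 0.14 (SE 0.31) for sEVNORM against sEVCTRL.

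Fadd (ENSMUSG00000031077, chr7:144577318-144582463, - strand), the adaptor that brings in caspase-8, read 17.2, 10.5 and 18.5 CPM in the sEVCTRL glands, 16.6, 16.7 and 16.4 in the sEVNORM glands, and 17.1 and 11.6 in the sEVHYP glands. Apart from sEVCTRL replicate 2 and sEVHYP replicate 2, all glands lay between 16.4 and 18.5 CPM. These 2 glands also had the highest summed skeletal muscle markers (7143 and 10953 CPM) and the lowest T cell markers (252 and 242 CPM). Fadd differed by -0.20 (SE 0.27) between sEVHYP and sEVNORM, by -0.10 (SE 0.27) between sEVHYP and sEVCTRL and by 0.11 (SE 0.24) between sEVNORM and sEVCTRL. The antisense gene Faddos, which overlaps its exon, held 0 to 2 counts.

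The kinases of the necroptosis complex kept close group means. Ripk1 (ENSMUSG00000021408, chr13:34002363-34037147, + strand) measured 45.5, 44.1 and 42.0 CPM with sEVCTRL, 46.2, 52.0 and 41.3 with sEVNORM, and 44.0 and 38.8 with sEVHYP. Its highest gland was only 1.34-fold above its lowest. Fold changes were -0.17 (SE 0.16), -0.08 (SE 0.16) and 0.09 (SE 0.14) for sEVHYP against sEVNORM, sEVHYP against sEVCTRL and sEVNORM against sEVCTRL. Part of its exons lies over exons of Serpinb6a on the opposite strand, which held 1365 to 2058 counts per library, and whether the counting used strand is not stated.

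Ripk3 (ENSMUSG00000022221, chr14:55784995-55788865, - strand), the kinase that activates MLKL, varied most of the 10, with 2.33-fold between the highest and the lowest gland. It stood at 14.0, 6.02 and 11.4 CPM in the sEVCTRL glands, 12.8, 12.1 and 8.33 in the sEVNORM glands, and 12.9 and 7.28 in the sEVHYP glands. As with Tradd, every group contained high and low glands. The group means of 10.5, 11.1 and 10.1 CPM (SD 4.08, 2.39 and 3.95) were almost equal, and the fold changes were -0.13 (SE 0.39), -0.06 (SE 0.39) and 0.08 (SE 0.35) in the order used for Ripk1. The 95% interval of sEVHYP against sEVNORM, from -1.01 to 0.74, was the widest of that comparison, and any change within it is compatible with these data.

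Mlkl (ENSMUSG00000012519, chr8:111311797-111338177, - strand), the protein that carries out necroptosis, was the only one of the 10 with groups that did not overlap, which held in 1 comparison. Its levels were 12.04, 12.2 and 14.3 CPM with sEVCTRL, 21.1, 12.5 and 11.8 with sEVNORM, and 18.4 and 16.1 with sEVHYP. Both sEVHYP glands lay above all 3 sEVCTRL glands, but the highest gland of all was sEVNORM replicate 1. The mean was 17.2 ± 1.67 CPM (SD, n = 2) with sEVHYP and 12.9 ± 1.28 CPM (SD, n = 3) with sEVCTRL. This fold change of 0.42 (SE 0.27, 95% interval -0.18 to 1.03) did not pass in edgeR (unadjusted P = 0.148, adjusted P = 1.00). Groups of sEVHYP and sEVCTRL failed to overlap in 12.8% of all genes, and in 1 of these 10. Mlkl differed by 0.19 (SE 0.27) between sEVHYP and sEVNORM and by 0.24 (SE 0.24) between sEVNORM and sEVCTRL, where 0 of the 10 genes failed to overlap (22.8% and 4.86% of all genes).

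Casp8 (ENSMUSG00000026029, chr1:58795374-58847503, + strand) showed the largest estimate of sEVHYP against sEVNORM. It was at 195, 167 and 153 CPM in the sEVCTRL glands, 207, 233 and 173 in the sEVNORM glands, and 180 and 147 in the sEVHYP glands. The sEVNORM glands tended to the upper end, yet sEVHYP replicate 1 exceeded sEVNORM replicate 3. Means were 163 ± 23.3 CPM (SD, n = 2) with sEVHYP, 204 ± 30.1 CPM (SD, n = 3) with sEVNORM and 172 ± 21.7 CPM (SD, n = 3) with sEVCTRL. The log2 fold change of sEVHYP against sEVNORM was -0.32 (SE 0.19, 95% interval -0.76 to 0.11, unadjusted P = 0.126 in edgeR), that against sEVCTRL was -0.07 (SE 0.19), and that of sEVNORM against sEVCTRL was 0.25 (SE 0.17). Casp8 was highest in sEVNORM replicate 2 and lowest in sEVHYP replicate 2. These glands had the highest and lowest B cell markers, and the lowest and highest skeletal muscle markers (7.40 and 10953 CPM). With a B cell score in the model, chosen after seeing the data, the estimate of sEVHYP against sEVNORM was -0.15 (unadjusted P = 0.316 in edgeR). No muscle or adipocyte score was put in the model, and the part of tissue in this difference was not tested.

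Cflar (ENSMUSG00000026031, chr1:58711508-58758884, + strand), which lies beside Casp8 on chromosome 1 and encodes its inhibitor, was the steadiest of the 10. Levels were 103, 118 and 111 CPM with sEVCTRL, 101, 117 and 107 with sEVNORM, and 111 and 115 with sEVHYP, a 1.17-fold range over 8 glands. The SD of its log2 CPM over the glands was 0.0822, beside 0.317 for the median gene tested and 0.445 for Ripk3. Fold changes were 0.06, 0.03 and -0.03 (SE 0.14, 0.14 and 0.13), and the intervals of all 3 comparisons stayed between -0.32 and 0.38. For Cflar, changes beyond those bounds lay outside the 95% intervals, the tightest among the 10.

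The ubiquitin-editing pair, Birc3 and Cyld, moved between glands more than between groups. Birc3 (ENSMUSG00000032000, chr9:7848699-7873186, - strand) gave 164, 145 and 137 CPM with sEVCTRL, 165, 218 and 136 with sEVNORM, and 170 and 115 with sEVHYP. The top and bottom values were in sEVNORM replicate 2 and sEVHYP replicate 2. These glands had the most and the fewest B cell marker counts, and the lowest and highest skeletal muscle markers (7.40 and 10953 CPM). Fold changes of Birc3 were -0.28 (SE 0.24), -0.06 (SE 0.24) and 0.22 (SE 0.21) in the same order of comparisons.

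Cyld (ENSMUSG00000036712, chr8:88697028-88751945, + strand) was measured at 77.7, 69.5 and 58.6 CPM with sEVCTRL, 65.2, 95.1 and 65.7 with sEVNORM, and 76.3 and 62.1 with sEVHYP. A single gland, sEVNORM replicate 2, stood above the others, and the remaining 7 spread from 58.6 to 77.7 CPM without regard to group. Fold changes were -0.12 (SE 0.22), 0.01 (SE 0.22) and 0.13 (SE 0.19).

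**Figure D2:**
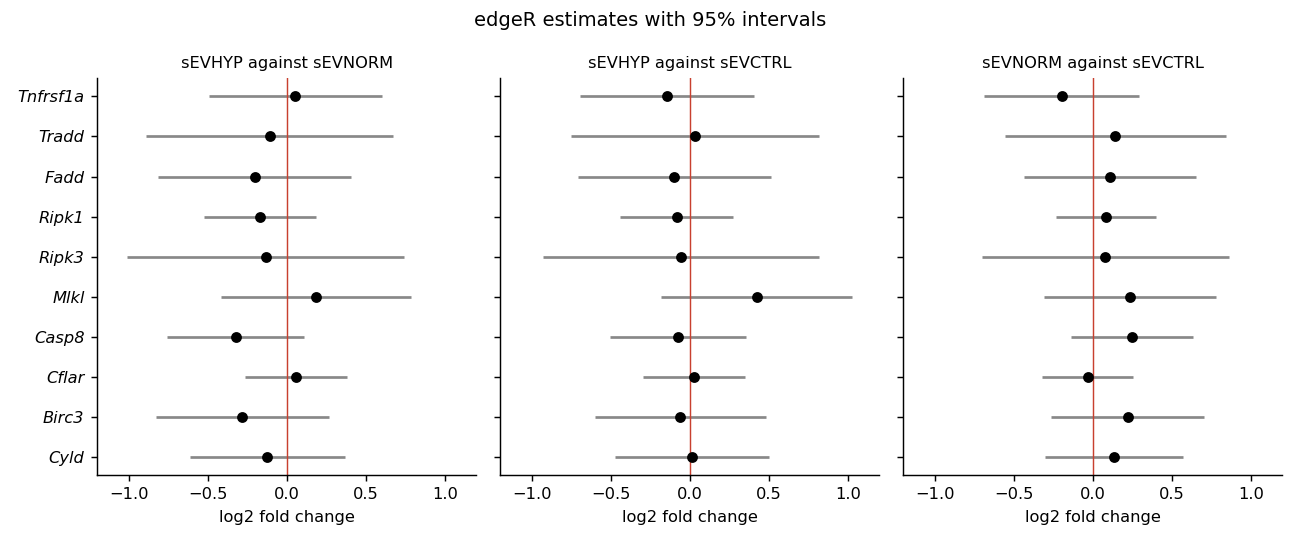
Log2 fold changes (horizontal axis) of the 10 genes in the 3 comparisons, as edgeR estimates (points) with 95% intervals (lines) from 8 libraries. Every interval includes 0; the widest are those of Ripk3 and the narrowest those of Cflar.

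Counted together, 3 of the 10 genes had a higher and 7 a lower estimate with sEVHYP than with sEVNORM, with a median of -0.13 on the log2 scale, where 53.0% of all genes tested had a lower estimate and the median was -0.02. Compared with sEVCTRL, 4 were higher and 6 lower with sEVHYP (median -0.06, all genes -0.02, 52.5% of all genes lower). With sEVNORM, 8 were higher and 2 lower than with sEVCTRL (median 0.12, all genes -0.00, 49.8% of all genes higher). These counts describe estimates that did not pass the test, and genes that follow the same tissue in a gland do not count as independent.

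Levels were compared between genes as CPM per kilobase of merged exons. Casp8 was the most abundant, at 62.8 ± 9.95 CPM per kb (SD over 8 glands), followed by Birc3 at 31.2 ± 6.25 and Tnfrsf1a at 16.2 ± 3.15. Cflar came next at 8.71 ± 0.49, and the necroptosis kinases and MLKL were low, with Mlkl at 6.43 ± 1.5, Ripk1 at 5.30 ± 0.47 and Ripk3 at 4.62 ± 1.29. Cyld was at 5.67 ± 0.93, and the adaptors closed the order, with Fadd at 3.99 ± 0.73 and Tradd at 3.76 ± 0.88. Only the first 3 steps, from Casp8 to Birc3, Tnfrsf1a and Cflar, separated the values of all 8 glands, and from Cflar down the ranges of neighbors overlapped. With the length of the longest transcript in place of merged exons, Casp8, Birc3, Tnfrsf1a and Cflar kept that order, but the ranges of Casp8 and Birc3 overlapped, as did those of Tnfrsf1a and Cflar, and Cyld moved above Mlkl and Tradd above Fadd.

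**Figure D3:**
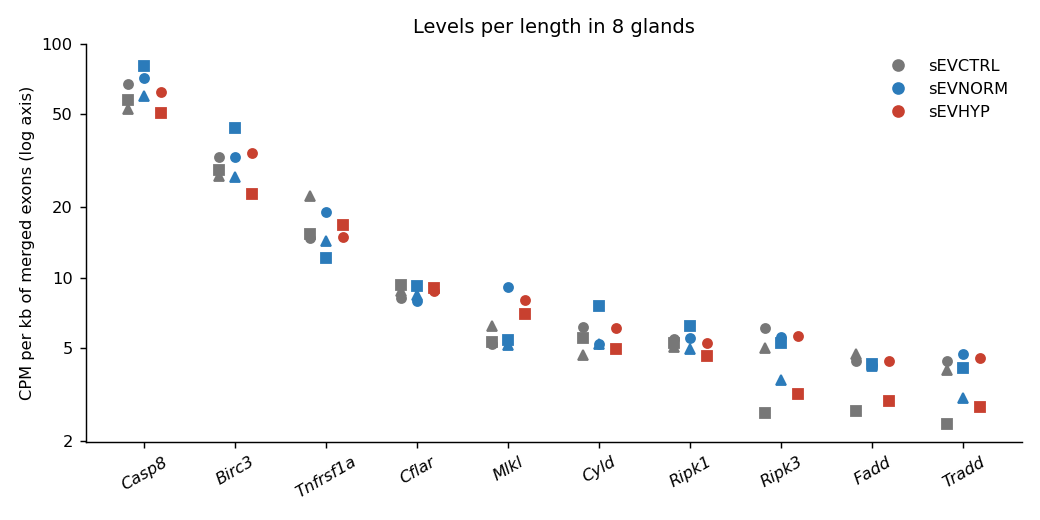
Levels of the 10 genes as CPM per kb of merged exons (vertical log axis), with 1 point for each of the 8 glands, colored by group and shaped by replicate number (circle 1, square 2, triangle 3). Casp8, Birc3 and Tnfrsf1a stand above the other genes without overlap, while the 7 genes from Cflar down lie between 2 and 10 CPM per kb.

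Ratios within a gland do not depend on library scaling, and 3 were examined for balance between partners. The log2 ratio of Cflar to Casp8 per kb was -3.05, -2.63 and -2.59 in the sEVCTRL glands, -3.17, -3.12 and -2.82 in the sEVNORM glands, and -2.83 and -2.48 in the sEVHYP glands. Message for the caspase thus exceeded message for its inhibitor in every gland, and the groups overlapped. With the longest transcript as the length, chosen after seeing the data, every value was 0.78 higher (range -2.38 to -1.70), and differences between groups were the same because the lengths cancel. The mean was 0.38 higher with sEVHYP than with sEVNORM (exact permutation test, p = 0.4), 0.10 higher than with sEVCTRL (exact p = 0.8), and 0.28 apart between sEVNORM and sEVCTRL (exact p = 0.2). With 2 against 3 glands such a test cannot go below 0.2, and with 3 against 3 not below 0.1.

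The log2 ratio of Ripk3 to Ripk1 averaged -0.28 ± 0.63 (SD, n = 3) with sEVCTRL, -0.23 ± 0.23 (SD, n = 3) with sEVNORM and -0.23 ± 0.45 (SD, n = 2) with sEVHYP. The means were thus nearly equal, and the lowest ratio, -1.01, was that of sEVCTRL replicate 2. The ratio of Mlkl to Ripk3 averaged 0.37 ± 0.62 (SD, n = 3), 0.42 ± 0.34 (SD, n = 3) and 0.82 ± 0.44 (SD, n = 2) in the same order. It was highest in sEVHYP replicate 2 (1.13) and sEVCTRL replicate 2 (1.01), the glands where Ripk3 was lowest, and the difference of 0.40 between sEVHYP and sEVNORM had an exact permutation p of 0.4.

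Around these 10 genes, 51 other genes of the pathway were listed by role, and all passed the filter. With sEVHYP against sEVNORM, 1 of 51 rose (3.95% of all genes were called) and 0 fell. Of the estimates 10 were higher and 41 lower (53.0% of all genes lower), with a median of -0.11 (all genes -0.02). Against sEVCTRL, 0 rose and 1 fell (2.45%), with 12 estimates higher and 39 lower (52.5% of all genes lower) and a median of -0.06 (all genes -0.02). Between sEVNORM and sEVCTRL, 0 of 51 passed (1.62%), 27 were higher (49.8% of all genes) and 24 lower, and the median was 0.01. As for the 10 genes, nearly all of these estimates did not pass, and genes that follow the same tissue do not count as independent. Groups did not overlap for 9, 4 and 4 of the 51 genes in these comparisons, beside 22.8%, 12.8% and 4.86% of all genes.

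The calls were death receptors. Tnfrsf10b, which encodes the mouse receptor for TRAIL, was at 8.93, 9.18 and 8.75 CPM in the sEVNORM glands and 13.2 and 11.8 in the sEVHYP glands, with 9.90, 11.4 and 12.5 in the sEVCTRL glands. Both sEVHYP glands exceeded all sEVNORM glands and overlapped the sEVCTRL glands. Its fold change against sEVNORM was 0.48 (SE 0.19, unadjusted P = 0.0338 and adjusted P = 1.00 in edgeR). Fas, the receptor for Fas ligand, was at 45.5, 43.6 and 45.1 CPM with sEVCTRL, 35.6, 35.8 and 41.2 with sEVNORM, and 32.0 and 37.0 with sEVHYP. All 5 glands that received AT3 vesicles lay below all 3 controls. Against sEVCTRL alone, groups failed to overlap in 12.8% of all genes for sEVHYP and 4.86% for sEVNORM. The share of all genes separated in both ways at once was not computed, and for Fas no test pooled these 5 glands. The fold change was -0.38 for sEVHYP (SE 0.15, unadjusted P = 0.0357 and adjusted P = 1.00 in edgeR) and -0.26 for sEVNORM (SE 0.13, unadjusted P = 0.0905 in edgeR), each against sEVCTRL. Neither call was stable to the choice of libraries: leaving out any 1 of the 5 glands compared ended the call of Tnfrsf10b (unadjusted P of 0.0599 to 0.173 in edgeR), and leaving out sEVHYP replicate 1, sEVHYP replicate 2 or sEVCTRL replicate 1 did so for Fas (0.231, 0.05002 and 0.0722).

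The other roles passed no test in any comparison. Of the ligands, Tnfsf10 (TRAIL) differed by -0.22 (SE 0.24) and Lta by -0.77 (SE 0.37, unadjusted P = 0.0706 in edgeR) between sEVHYP and sEVNORM. Lta was at 6.52, 9.53 and 5.16 CPM with sEVNORM and 5.08 and 3.21 with sEVHYP. B cells and T cells are known to make it, and their summed markers were lowest in sEVHYP replicate 2. The part of these cells in the difference of Lta was not tested. Among death receptors without a call, Tnfrsf21 differed by -0.11 (SE 0.18). Among ligases and inhibitors of apoptosis, Xiap differed by -0.05 (SE 0.18) and Birc2, the paralog and chromosomal neighbor of Birc3, by -0.16 (SE 0.18). The NF-kB brakes Tnfaip3 (A20) and Tnip1 differed by -0.07 (SE 0.26) and -0.09 (SE 0.20). In the survival branch, Tab2 and Ikbkb differed by -0.01 (SE 0.14) and -0.14 (SE 0.24), and the NF-kB subunit genes Rel and Nfkb1 by -0.15 (SE 0.34) and -0.21 (SE 0.19). The innate sensors Tlr3 and Tlr4, which reach the RIP kinases through TRIF, both differed by -0.11 (SE 0.31 and 0.21). Downstream of caspase-8, Bid differed by -0.22 (SE 0.28), and the membrane repair genes Pdcd6ip and Chmp4b differed by -0.06 (SE 0.14) and 0.03 (SE 0.14). Most of these estimates, like those of the 10 genes, were near 0 with errors of their own size or more.

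Zbp1, a nucleic acid sensor that can engage RIPK3 directly and that interferon induces, was chosen for mention after its values were seen. It was at 33.7, 49.3 and 26.9 CPM with sEVCTRL, 97.1, 50.4 and 34.5 with sEVNORM, and 35.8 and 30.7 with sEVHYP. The high value belonged to sEVNORM replicate 1, the gland with the highest summed interferon response markers (1090 CPM, beside 408 to 872 in the others) and the highest Mlkl. Its fold change was -0.87 (SE 0.41) between sEVHYP and sEVNORM and 0.73 (SE 0.36) between sEVNORM and sEVCTRL (unadjusted P = 0.0656 and 0.0750 in edgeR).

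Because whole glands mix cell types, each of the 10 genes was set against 7 marker scores, a score being the mean log2 CPM of a list, over the 8 glands. Of these 70 relations, 1 passed an adjusted p of 0.05 over all 70. Cyld fell as the white adipocyte score (Adipoq, Lep, Plin1 and 5 others) rose, with Pearson r = -0.965 (exact permutation p = 9.92e-05, adjusted 0.00694) and Spearman rho = -0.952 (exact permutation p = 0.00114, adjusted 0.0799). Without the 2 glands farthest from the median score, sEVNORM replicate 2 and sEVCTRL replicate 3, r was -0.953. Birc3 (r = -0.861), Casp8 (-0.801) and Ripk1 (-0.797) ran the same way against this score, and Tnfrsf1a ran the opposite way (0.820), with adjusted exact permutation p of 0.0749, 0.105, 0.105 and 0.0884. Without the same 2 glands these r were -0.850, -0.523, -0.695 and 0.379 (exact permutation p of 0.0347, 0.2875, 0.135 and 0.464). Those of Casp8 and Tnfrsf1a thus rested largely on these 2 glands, and that of Ripk1 in part.

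Scores of lymphocytes ran with many of the genes, short of the adjusted threshold. How many of all genes tested ran with these scores, or with the others, was not computed. The counts and r below, and those with the white adipocyte score above, therefore cannot be read as particular to the 10 genes. With the B cell score, 7 of 10 correlations were positive, the strongest those of Birc3 (r = 0.901), Ripk1 (0.865), Casp8 (0.851) and Ripk3 (0.834), with adjusted exact permutation p of 0.0749, 0.0749, 0.0853 and 0.0853. Spearman rho of these 4 was 0.833, 0.833, 0.905 and 0.810. Without the 2 glands farthest from the median score (sEVHYP replicate 2 and sEVNORM replicate 2), r was 0.743, 0.632, 0.628 and 0.895. The exact permutation p of these r was 0.107, 0.174, 0.169 and 0.0111. The relations of Birc3, Ripk1 and Casp8 thus rested in part on these 2 glands. With the T cell score, 7 of 10 were positive as well, led by Fadd (r = 0.921) and Ripk3 (r = 0.894), each with an adjusted exact permutation p of 0.0749. Without sEVHYP replicate 2 and sEVCTRL replicate 2, those r fell to 0.524 and 0.612, so they rested largely on these 2 glands. Mlkl, Cflar and Tnfrsf1a followed neither lymphocyte score, with r between -0.34 and -0.02. Mlkl and the interferon score gave r = 0.346 (exact permutation p = 0.397), or -0.08 without sEVNORM replicate 1 and sEVCTRL replicate 2. The myeloid score also had 7 of 10 positive correlations, with r from -0.63 to 0.38. The luminal score had 3 of 10, with r from -0.61 to 0.55. The lowest adjusted exact permutation p for these 2 scores was 0.317 and 0.336. Against the skeletal muscle score, 2 of 10 correlations were positive. The most negative were Ripk1 (r = -0.793), Birc3 (-0.777), Cyld (-0.775) and Casp8 (-0.761), with adjusted exact permutation p of 0.119, 0.119, 0.136 and 0.114. Without sEVNORM replicate 2 and sEVCTRL replicate 1 these r were -0.158, -0.220, 0.303 and -0.262, so they rested on these 2 glands. The part of tissue composition in these relations was not tested.

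**Figure D4:**
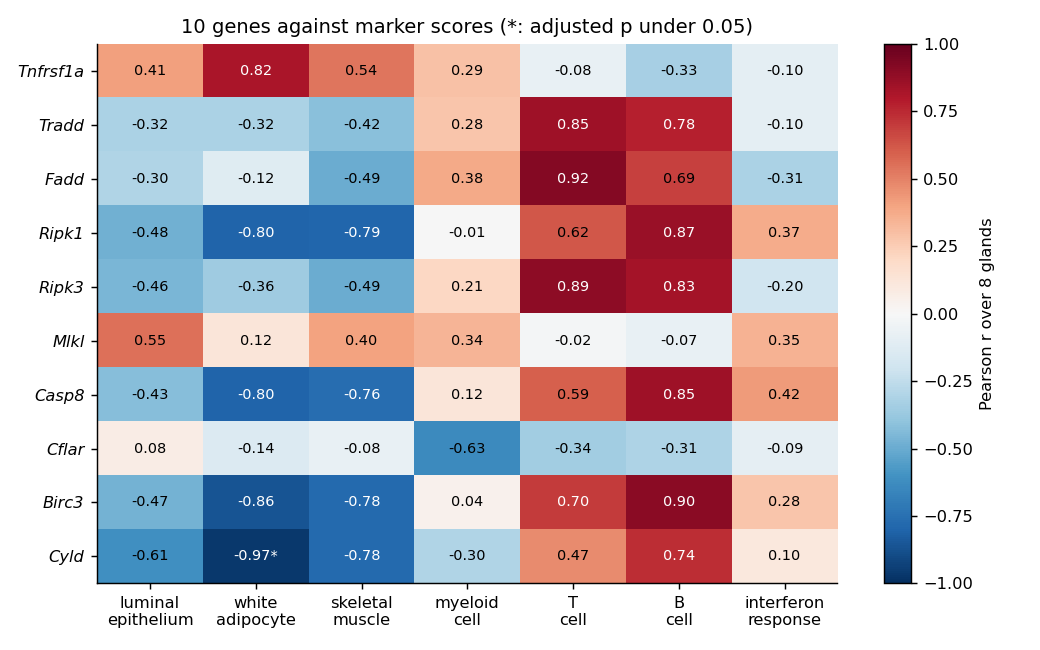
Pearson r over 8 glands between log2 CPM of each of the 10 genes (vertical) and 7 marker scores (horizontal), with color and number giving r; the star marks the 1 relation past an adjusted p of 0.05, Cyld with the white adipocyte score. Birc3, Ripk1, Casp8 and Ripk3 are at 0.83 or more with the B cell score, while Mlkl, Cflar and Tnfrsf1a are near or below 0 with both lymphocyte scores.

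Among themselves, the 10 genes formed 45 pairs, of which 29 correlated positively over the glands, with a median r of 0.308. After adjustment over the 45 pairs, 7 passed. For pairs of other genes in these glands no such shares were computed, so these counts cannot be read as particular to the 10 genes. The strongest pair was Tradd with Ripk3 (r = 0.987, adjusted exact permutation p = 0.0104, rho = 0.905, r = 0.951 without the 2 glands farthest from the median of Tradd). For this pair 3 glands, sEVCTRL replicate 2, sEVNORM replicate 3 and sEVHYP replicate 2, were low and the other 5 high, with 1 low gland in each group. A trio of Ripk1, Birc3 and Casp8 ran together, with r = 0.968 for Ripk1 and Birc3, 0.932 for Ripk1 and Casp8, and 0.926 for Casp8 and Birc3 (adjusted exact permutation p of 0.0104, 0.0104 and 0.0117). Leaving out the 2 farthest glands, these r were 0.834, 0.809 and 0.777.

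Cyld joined the trio through Birc3 (r = 0.871, adjusted exact permutation p = 0.0458, 0.706 without the 2 farthest glands). Fadd ran with Ripk3 (r = 0.875) and with Tradd (r = 0.859), each at an adjusted exact permutation p of 0.0458, but these fell to 0.242 and 0.187 without the 2 farthest glands and rest on them. By Spearman rho no pair passed after adjustment (lowest adjusted exact permutation p = 0.121). Tnfrsf1a and Cyld were the most opposed pair, with r = -0.834 and rho = -0.833 (adjusted exact permutation p = 0.0615 and 0.138). The 7 pairs that passed linked Tradd, Fadd and Ripk3 on one side and Ripk1, Casp8, Birc3 and Cyld on the other, and none of them held Cflar, Mlkl or Tnfrsf1a.

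**Figure D5:**
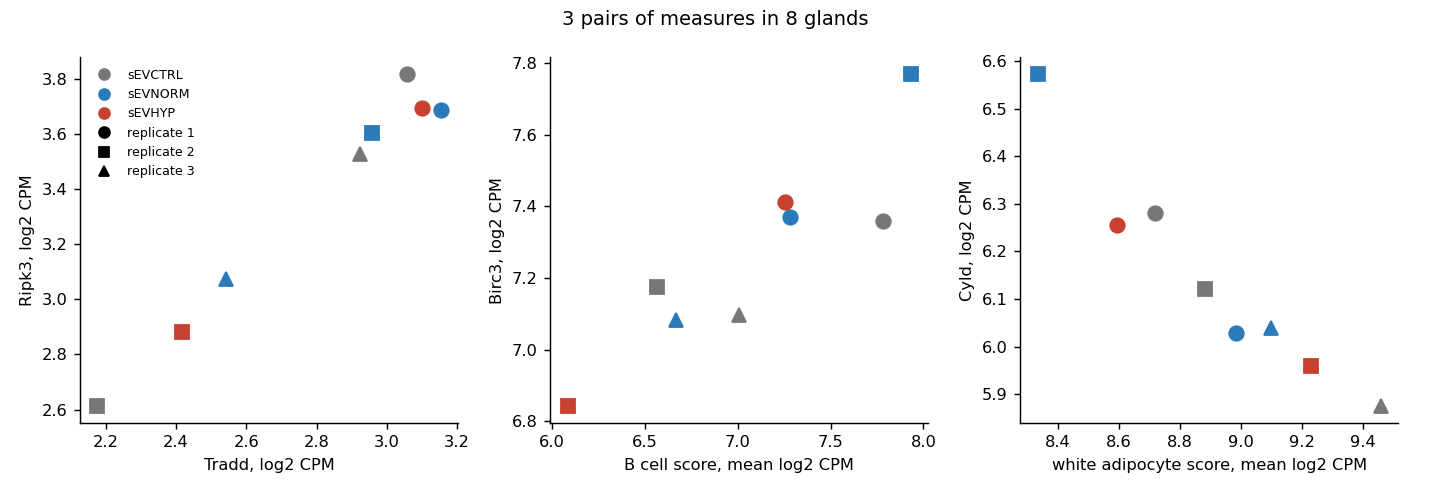
Values in 8 glands (points, colored by group and shaped by replicate number) for Tradd and Ripk3 (log2 CPM, left), Birc3 and the B cell score (middle), and Cyld and the white adipocyte score (right), with scores as mean log2 CPM. Glands of the 3 groups are mixed along each trend, with r of 0.987, 0.901 and -0.965.

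Over all 17858 genes tested, those most like Ripk3 by Pearson r of log2 CPM over the 8 libraries were Gm14303 (0.988), Tradd (0.987) and Cdk4 (0.986), and 323 genes (1.81%) had an r over 0.9 with it. The profile of Ripk3 was therefore not particular to it. For Mlkl they were 6330418K02Rik (0.957), D930048N14Rik (0.953) and Alox8 (0.931), and 5 genes (0.0280%) passed 0.9. Fewer genes thus followed Mlkl than Ripk3 at this bound. Such shares were not computed for other genes, and these values, picked from the whole table, are a description without a test.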

How the data were processed

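RNA of whole mammary glands was sequenced in 8 libraries (3 sEVCTRL, 3 sEVNORM, 2 sEVHYP), grouped by the treatment given in the labels. The deposited table holds counts per gene that the authors made by aligning reads to mm10 (GRCm38) with STAR and estimating expression with RSEM 1.2.12 on Ensembl genes. The values are whole numbers without normalization, and neither the rounding of the estimates nor the use of strand is given in the sources used here. The labels name a mRNA kit (Lexogen Sense) and polyA RNA. Totals per library were 18194996 to 24622569 counts. Every pair of libraries differed beyond counting noise. The study counts animals per group, and the labels do not tie libraries to animals.

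The 3 groups were fitted together by the two-sided quasi-likelihood F-test of edgeR 4.0.16 (R 4.3.3), with TMM scaling, the filterByExpr filter at its count minimum of 10 and no replicate block, which left 5 residual and 4.08 prior degrees of freedom. Of 51789 genes, 17858 were tested. The threshold was an unadjusted P of 0.05, as in the study, and Benjamini-Hochberg adjusted P values covered all genes tested. A prior count of 2 entered log2 CPM. Exon lengths and positions came from GENCODE M21 and promoter windows from RefSeq GRCm38.p6. Ratios and correlations were tested by exact permutation in Python 3.11.15 with scipy 1.17.1. A marker score is the mean log2 CPM of a list. The procedure was tested on simulated data.

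The 10 genes, the lists and the tests were chosen with earlier results of these data known. All 10 genes were named in every comparison. Of 51 other pathway genes, those past the threshold and, per role, up to 2 with the highest mean CPM were named. A gene that this rule names is not reported here. For Ripk3 and Mlkl the 3 genes with the highest correlation were named. Alternatives were DESeq2 1.42.0 on the groups compared, DESeq2 size factors, edgeR on the groups compared, no filter, the replicate number as a block, each library left out, transcript length, and, chosen after seeing the data, a B cell or interferon score as a covariate and transcript length in the ratios.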

Additional observations from a re-analysis of the deposited data

How the results depend on the processing

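None of the 10 genes passed an unadjusted P of 0.05 under any alternative run, each library left out included. Of the estimates for the 10 genes under alternatives, 325 kept their sign and 45 changed it, 35 of those on leaving out 1 library, and none of the 45 passed. Between glands of the same replicate number, correlations of the deviations from group means ran from -0.42 to 0.37. Those of sEVCTRL with sEVHYP were 0.37 and 0.34. Glands of unlike number were not compared, so these values cannot decide whether the numbers pair the glands. A replicate block gave 769, 401 and 252 genes for sEVHYP against sEVNORM, sEVHYP against sEVCTRL and sEVNORM against sEVCTRL, beside 706, 438 and 290. Under the block 2 signs changed, both against sEVCTRL with sEVHYP, Tradd to -0.0087 and Cyld to -0.081. With a B cell score as a covariate, chosen after seeing the data, 911 genes passed for sEVHYP against sEVCTRL and 473 for sEVNORM against sEVCTRL. That covariate turned Tnfrsf1a (-0.047), Tradd (0.18), Ripk3 (0.24) and Cyld (0.067) for sEVHYP against sEVNORM, and Fadd (0.034), Ripk3 (0.25), Casp8 (0.043) and Birc3 (0.091) for sEVHYP against sEVCTRL. Without the filter on low counts 1102, 672 and 533 genes passed, and 1 at an adjusted P for sEVHYP against sEVNORM. DESeq2 on the groups compared gave 1195 genes for sEVHYP against sEVNORM and, at an adjusted P, 83, 14 and 3. The cause of these moves was not tested.

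Leaving out 1 library gave 415 to 827 genes for sEVHYP against sEVNORM (lowest without sEVHYP replicate 2), 407 to 1472 for sEVHYP against sEVCTRL and 222 to 1018 for sEVNORM against sEVCTRL (highest without sEVCTRL replicate 2 in both, and 568 in the latter without sEVCTRL replicate 1). For sEVHYP against sEVNORM the log2 fold change then ranged from -0.081 to 0.25 for Tnfrsf1a, -0.50 to 0.19 for Tradd, -0.51 to 0.042 for Fadd, -0.60 to 0.21 for Ripk3 and -0.28 to 0.082 for Cyld. For sEVHYP against sEVCTRL it ranged from -0.25 to 0.068 for Tnfrsf1a, -0.35 to 0.32 for Tradd, -0.40 to 0.14 for Fadd, -0.52 to 0.28 for Ripk3, -0.22 to 0.053 for Casp8, -0.024 to 0.075 for Cflar, -0.37 to 0.19 for Birc3 and -0.14 to 0.14 for Cyld. For sEVNORM against sEVCTRL the range was -0.40 to 0.013 for Tnfrsf1a, -0.086 to 0.30 for Tradd, -0.11 to 0.26 for Fadd, -0.0025 to 0.16 for Ripk1, -0.20 to 0.32 for Ripk3, -0.081 to 0.39 for Mlkl, -0.10 to 0.018 for Cflar and -0.068 to 0.23 for Cyld. The level order kept 3 separated steps with merged exons and 2 with the longest transcript. With 2 or 3 glands a group, the 95% interval of Ripk3 between sEVHYP and sEVNORM ran from -1.01 to 0.74, and any change within it is compatible with these data.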
